A study of Mus musculus with 10 samples.

Results

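The 32 genes described here mark microglia, macrophages and, in part, all white blood cells, and they were found by their GENCODE M21 symbols among the 57010 gene rows of the table. All 32 symbols matched 1 row each. They were set in 4 classes: 5 genes of resting (homeostatic) microglia, 9 pan-leukocyte genes, 11 phagocytic and activation genes, and 7 general myeloid genes. RNA was sequenced from whole retinas of 10 mice aged 6 to 8 weeks at the start. Of these, 5 received AAV2-GFP and 5 AAV206-GFP into the vitreous, and retinas were taken 14 days later. Both groups therefore share the injection, an adeno-associated virus (AAV) particle and a green fluorescent protein (GFP) transgene, and they differ in the capsid. AAV2 is a common capsid for delivery from the vitreous, and the series as a whole is about a vector for the retinal pigment epithelium. The labels used here give no strain, sex, vector dose or promoter, and uninjected retinas were not analysed here, so no value below is a change from an untreated eye.

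Microglia are the resident macrophages of the retina. At rest they extend fine processes through the plexiform layers and carry P2Y purinergic receptors, the fractalkine receptor and other surface proteins that are lowered when the cells become reactive. Blood-derived monocytes and macrophages share most other myeloid genes with them, and genes such as Ptprc, which encodes CD45, are also expressed by lymphocytes. In a whole-tissue library, fewer cells of a type and less RNA per cell cannot be told apart, and neither can microglia and other cells that express the same gene.

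Total counts per library lay between 10989843 and 12752604, and trimmed mean of M values (TMM) scaling factors between 0.984 and 1.02, with 1.00 for AAV2-GFP replicate 1. Levels are CPM, counts scaled to the effective size of each library, and 3 counts, the limit below which levels are not told apart here, correspond to 0.232 to 0.274 CPM. All libraries held the rod phosphodiesterase gene Pde6b, named as a check of the tissue after its values were seen, at 2357 to 2544 CPM with AAV2-GFP and 2259 to 2546 CPM with AAV206-GFP. AAV2-GFP replicate 1 stood apart from the other 9 libraries in most of the results below, and the fold changes of the tested genes among the 32 are given with and without it.

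The promoters of these genes are shown because the transcription factor PU.1, the product of Spi1, which is itself 1 of the 32, binds purine-rich sites with a GGAA centre in myeloid promoters. The RefSeq table of promoters (GRCm38.p6) held 24 of the 32 genes, with 29 windows of the 250 bases before a gene start. The 7 letters AGGAAGT, searched on both strands, were in 6 of the 29 windows (20.7%), from 5 genes, and in 7.69% of all 32851 windows. A longer form that contains those letters, GAGGAAGT, was in 1 of the 29 windows (Vav1) and in 2.44% of all. These matches are letters in a window, not measured binding. AGGAAGT was searched as a short core of the ETS family, to which PU.1 belongs, and does not single out PU.1. Capitals mark AGGAAGT or its reverse complement in the 5 genes that hold it, written 5′ to 3′ in the direction of the gene.
Ptprc (GRCm38.p6, chr1:138175306-138175555, minus strand): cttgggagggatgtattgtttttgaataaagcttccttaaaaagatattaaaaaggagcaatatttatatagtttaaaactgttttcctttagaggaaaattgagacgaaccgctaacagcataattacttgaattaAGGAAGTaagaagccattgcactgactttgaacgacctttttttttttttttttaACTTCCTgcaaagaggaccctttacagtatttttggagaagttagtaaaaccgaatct
Vav1 (GRCm38.p6, chr17:57278850-57279099, plus strand): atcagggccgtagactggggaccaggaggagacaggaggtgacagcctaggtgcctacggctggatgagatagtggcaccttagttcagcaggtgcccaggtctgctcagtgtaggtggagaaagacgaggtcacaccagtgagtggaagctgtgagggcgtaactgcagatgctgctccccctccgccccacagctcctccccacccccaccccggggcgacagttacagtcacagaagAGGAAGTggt
Lyz2 (GRCm38.p6, chr10:117282273-117282522, minus strand): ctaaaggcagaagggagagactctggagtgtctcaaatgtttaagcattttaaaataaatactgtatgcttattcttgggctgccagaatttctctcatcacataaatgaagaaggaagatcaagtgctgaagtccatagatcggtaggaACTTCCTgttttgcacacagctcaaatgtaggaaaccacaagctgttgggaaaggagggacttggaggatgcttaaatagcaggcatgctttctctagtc
Fcgr1 (GRCm38.p6, chr3:96293970-96294219, minus strand): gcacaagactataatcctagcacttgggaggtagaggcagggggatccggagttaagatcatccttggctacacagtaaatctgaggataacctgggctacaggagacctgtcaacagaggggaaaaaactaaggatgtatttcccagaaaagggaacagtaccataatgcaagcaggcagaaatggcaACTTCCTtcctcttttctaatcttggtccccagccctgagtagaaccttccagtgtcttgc
P2ry12 (GRCm38.p6, chr3:59262986-59263235, minus strand): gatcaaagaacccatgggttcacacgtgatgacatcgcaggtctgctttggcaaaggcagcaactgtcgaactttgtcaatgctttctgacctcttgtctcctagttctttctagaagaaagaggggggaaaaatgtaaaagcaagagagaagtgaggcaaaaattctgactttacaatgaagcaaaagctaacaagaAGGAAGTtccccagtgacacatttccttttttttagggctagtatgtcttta
Ptprc and Lyz2, whose windows hold these letters, had log2 fold changes between the groups of -3.03 and -2.83 with all libraries, and of 0.40 and -0.41 without AAV2-GFP replicate 1. P2ry12, whose window holds them too, had -0.38 and -0.25. Vav1 and Fcgr1 had too few counts to pass the filter. Genes with and without the letters were not compared, and a link between the letters and the fold changes was not tested.

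**Figure D1:**
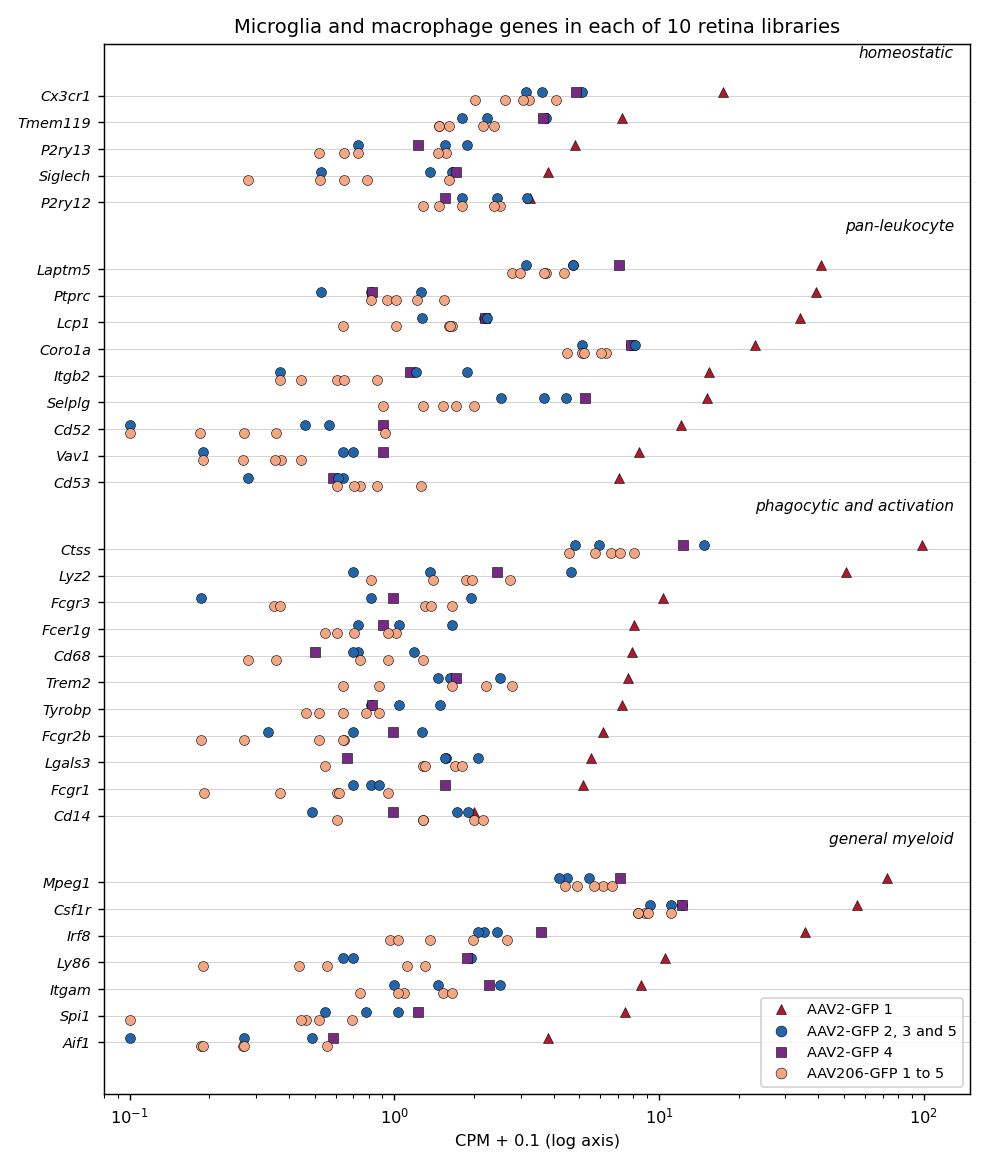
Level of each of the 32 genes in each library, as CPM + 0.1 on a log axis, with genes grouped by class. Triangles are AAV2-GFP replicate 1, squares AAV2-GFP replicate 4, other blue points the remaining AAV2-GFP libraries and orange points the 5 AAV206-GFP libraries. The triangle is the rightmost point in 31 of the 32 genes, and the remaining points of both groups overlap in nearly all genes.

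In the comparison of AAV206-GFP with AAV2-GFP, 21 of the 32 genes had enough counts to be tested, and 3 were lower past an adjusted p of 0.05 in edgeR's quasi-likelihood test. None was higher, while 16 were lower at an unadjusted p under 0.05, as were 14.3% of all 15539 tested genes. Over all tested genes, 5.30% were called lower and 5.95% higher in the same fit. The median log2 fold change over the 21 genes was -1.44, against -0.0095 over all tested genes. The 11 genes left out failed the filter on low counts and are described by their values. Without AAV2-GFP replicate 1, 1 of 21 genes was called lower, where 5.80% of 15699 genes were, and the median log2 fold change was -0.49.

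Selplg was the gene called in both fits. It encodes PSGL-1, the mucin-like ligand by which leukocytes bind selectins on vessel walls, and it is also expressed by microglia. In AAV2-GFP replicates 1 to 5 it was at 15.1, 2.43, 4.33, 5.16 and 3.59 CPM, and in AAV206-GFP replicates 1 to 5 at 1.43, 1.19, 1.90, 0.807 and 1.61 CPM. Every AAV2-GFP library was above every AAV206-GFP library, also when replicate 1 was set aside. Among all tested genes 4.36% showed no overlap with AAV206-GFP lower, and Selplg was the only one of the 32. The means were 6.12 ± 5.12 and 1.39 ± 0.415 CPM (SD, n = 5 each). It fell by 2.13 on the log2 scale (standard error 0.44, edgeR adjusted p = 0.0057), and by 1.48 (standard error 0.30, edgeR adjusted p = 0.0050) without replicate 1. The call held in all 10 fits that left out 1 library, with adjusted p of at most 0.0208, and in all 11 other alternatives.

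Lcp1 and Irf8 were the other genes called. Lcp1 encodes plastin-2, which bundles actin in leukocytes. It was at 33.8, 1.17, 2.09, 2.10 and 2.14 CPM in AAV2-GFP replicates 1 to 5 and at 1.51, 0.912, 1.55, 0.538 and 1.53 CPM in AAV206-GFP. Replicate 1 was the single high library, AAV2-GFP replicate 2 lay within the AAV206-GFP range, and replicates 3 to 5 were just above it. The log2 fold change was -2.74 (standard error 0.83, edgeR adjusted p = 0.0448) and, without replicate 1, -0.62 (standard error 0.35, edgeR adjusted p = 0.253). Irf8, an interferon regulatory factor required for the microglial and monocyte lineage, was also far highest in replicate 1. It was at 35.5, 2.34, 2.09, 3.47 and 1.97 CPM in AAV2-GFP and at 1.26, 2.55, 0.862, 1.88 and 0.933 CPM in AAV206-GFP, so that only replicates 1 and 4 were above the AAV206-GFP range. Its log2 fold change was -2.59 (standard error 0.77, edgeR adjusted p = 0.0417) and, without replicate 1, -0.72 (standard error 0.34, edgeR adjusted p = 0.179). Both calls were also lost whenever any single AAV206-GFP library was left out.

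**Figure D2:**
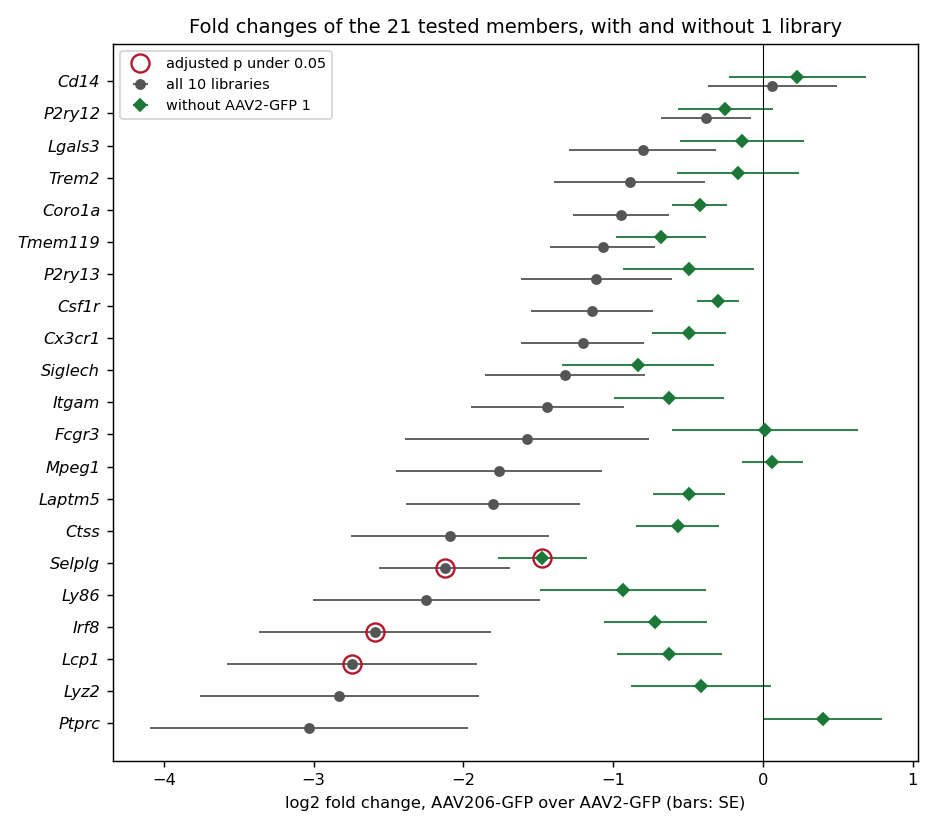
Log2 fold change of AAV206-GFP over AAV2-GFP with its standard error for the 21 tested genes, from all 10 libraries (circles) and without AAV2-GFP replicate 1 (diamonds). Rings mark an adjusted p under 0.05. With all libraries 3 genes are ringed, without replicate 1 only Selplg is, and the diamonds lie between -1.48 and 0.40.

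None of the 5 homeostatic genes passed the test, and P2ry12 differed least. P2ry12 encodes the ADP receptor that steers microglial processes towards damaged cells. It was at 3.16, 2.34, 1.70, 1.45 and 3.08 CPM in AAV2-GFP replicates 1 to 5, and at 1.18, 1.37, 2.41, 1.70 and 2.29 CPM in AAV206-GFP. The groups overlapped throughout, and replicate 1 was level with replicate 5 of its group. The 35 counts behind replicate 1 gave an exact 95% Poisson interval of 2.20 to 4.40 CPM for counting error, which includes the values of replicates 2 and 5. The log2 fold change was -0.38 (standard error 0.30, edgeR adjusted p = 0.431; -0.25 without replicate 1).

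The fractalkine receptor Cx3cr1, through which neurons signal to microglia, was at 17.3, 3.05, 5.03, 4.76 and 3.50 CPM with AAV2-GFP and at 3.11, 1.92, 3.97, 2.51 and 2.97 CPM with AAV206-GFP. Its log2 fold change of -1.20 (standard error 0.41) did not pass (edgeR adjusted p = 0.0687; log2 fold change -0.50 and adjusted p = 0.199 without replicate 1). Tmem119, a membrane protein used to tell microglia from other macrophages, was at 7.14, 1.71, 3.63, 3.55 and 2.14 CPM and at 1.51, 1.37, 1.38, 2.06 and 2.29 CPM, with a log2 fold change of -1.07 (standard error 0.35, edgeR adjusted p = 0.0589; -0.68 with adjusted p = 0.149 without replicate 1). In these genes AAV2-GFP replicates 3 and 4 were also above all AAV206-GFP libraries, while replicates 2 and 5 were not.

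P2ry13, another purinergic receptor of microglia, was at 4.70, 0.629, 1.78, 1.13 and 1.45 CPM in AAV2-GFP and at 0.421, 0.547, 1.47, 0.628 and 1.36 CPM in AAV206-GFP (log2 fold change -1.11, edgeR adjusted p = 0.161; -0.50 without replicate 1). Siglech, a sialic acid binding lectin of microglia and plasmacytoid dendritic cells, was at 3.71, 1.26, 1.55, 1.61 and 0.427 CPM and at 1.51, 0.547, 0.690, 0.179 and 0.424 CPM (log2 fold change -1.32, edgeR adjusted p = 0.120; -0.84 without replicate 1). The groups overlapped in each gene, and replicate 1 was again the highest library. These levels rest on few counts, and Siglech was under the limit of 3 counts in AAV206-GFP replicate 4.

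Pan-leukocyte genes had the widest gap between replicate 1 and the rest. Ptprc was at 39.0 CPM in replicate 1, at 0.427 to 1.16 CPM in the other AAV2-GFP libraries and at 0.718 to 1.44 CPM in AAV206-GFP. Its log2 fold change was -3.03 (standard error 1.06) with all libraries, the lowest of the 21, yet it did not pass (edgeR adjusted p = 0.0764). Without replicate 1 it was 0.40 (standard error 0.39, edgeR adjusted p = 0.536), the highest of the 21. AAV2-GFP replicates 2 to 5 were at 0.719, 1.16, 0.726 and 0.427 CPM and AAV206-GFP replicates 1 to 5 at 0.841, 0.912, 1.12, 0.718 and 1.44 CPM, so these 9 libraries overlapped.

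The other pan-leukocyte genes were also highest in replicate 1. Laptm5, a lysosomal membrane protein of blood cells, was at 40.8 CPM in replicate 1, 3.05 to 6.94 CPM in the other AAV2-GFP libraries and 2.67 to 4.29 CPM in AAV206-GFP (log2 fold change -1.80, edgeR adjusted p = 0.0568; -0.49 without replicate 1). Coro1a, which encodes the actin regulator coronin-1A, was at 23.0, 5.03 to 8.03 and 4.38 to 6.23 CPM in the same order (log2 fold change -0.95, edgeR adjusted p = 0.0655; -0.42 without replicate 1). Itgb2, the beta chain of the leukocyte integrins, was at 15.4 CPM against 0.269 to 1.78 CPM in the other 9 libraries and was not tested. Cd52, a small surface glycoprotein, Vav1, an exchange factor for Rac in immune receptor signalling, and Cd53, a tetraspanin, were not tested either. They were at 12.03, 8.32 and 6.96 CPM in replicate 1, and none exceeded 1.17 CPM in any other library.

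Among the phagocytic and activation genes, the cysteine protease gene Ctss, which encodes the cathepsin of antigen-presenting cells, was the nearest to the threshold. It was at 98.0, 5.84, 14.6, 12.3 and 4.70 CPM in AAV2-GFP and at 6.48, 7.02, 5.61, 4.49 and 7.97 CPM in AAV206-GFP. Replicate 1 was highest, replicates 3 and 4 were above all AAV206-GFP libraries, and replicates 2 and 5 were within them. The log2 fold change of -2.09 (standard error 0.66) had an edgeR adjusted p of 0.0516, and without replicate 1 it was -0.57 (edgeR adjusted p = 0.191). Lyz2, the lysozyme gene of macrophages and neutrophils, was at 50.8 CPM in replicate 1 and between 0.598 and 4.56 CPM elsewhere (log2 fold change -2.83, edgeR adjusted p = 0.0601; -0.41 without replicate 1).

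Receptors and adaptors of this class were lower and closer together. Trem2, a lipid-sensing receptor of microglia, was at 7.50 CPM in replicate 1 and 0.538 to 2.69 CPM elsewhere (log2 fold change -0.89, edgeR adjusted p = 0.262; -0.17 without replicate 1). Its signalling adaptor Tyrobp (DAP12) was at 7.14 against 0.365 to 1.39 CPM, and the related adaptor Fcer1g, which serves the activating Fc receptors, at 7.96 against 0.449 to 1.55 CPM. The IgG receptors Fcgr1, Fcgr2b and Fcgr3, of which Fcgr2b is inhibitory, were at 5.06, 6.06 and 10.2 CPM in replicate 1 and at most 1.86 CPM elsewhere. Fcgr3 was the one of these that was tested (log2 fold change -1.58, edgeR adjusted p = 0.217; 0.0159 without replicate 1). The lysosomal glycoprotein gene Cd68 was at 7.78 against 0.179 to 1.18 CPM. Lgals3, which encodes galectin-3, was at 5.42 against 0.449 to 1.98 CPM (log2 fold change -0.80, edgeR adjusted p = 0.299; -0.14 without replicate 1).

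Cd14, the co-receptor for bacterial lipopolysaccharide, was the exception. It was at 1.90, 1.80, 0.387, 0.887 and 1.62 CPM in AAV2-GFP and at 1.18, 1.19, 1.90, 2.06 and 0.509 CPM in AAV206-GFP. Replicate 1 lay within the range of AAV206-GFP. The log2 fold change was 0.06 (standard error 0.43, edgeR adjusted p = 0.944; 0.23 without replicate 1), and its sign turned on omission of AAV2-GFP replicate 3 or 4 or AAV206-GFP replicate 3 or 4.

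Of the general myeloid genes, Mpeg1, a pore-forming protein of macrophages, was at 72.3 CPM in replicate 1, 4.10 to 7.02 CPM in the other AAV2-GFP libraries and 4.32 to 6.55 CPM in AAV206-GFP (log2 fold change -1.76, edgeR adjusted p = 0.106; 0.06 without replicate 1). Csf1r, the growth factor receptor on which microglia depend, was at 55.7 CPM in replicate 1, 9.16 to 12.1 CPM in the other AAV2-GFP libraries and 8.19 to 11.0 CPM in AAV206-GFP (log2 fold change -1.14, edgeR adjusted p = 0.0819; -0.30 without replicate 1). Csf1r counts carried decimals in 8 libraries, so reads shared with another gene leave its level uncertain. Itgam, the alpha chain of the complement receptor CR3, was at 8.41 against 0.638 to 2.40 CPM elsewhere (log2 fold change -1.44, edgeR adjusted p = 0.0787; -0.62 without replicate 1). Ly86, a partner of the toll-like receptor relative CD180, was at 10.4 against 0.0897 to 1.86 CPM (log2 fold change -2.25, edgeR adjusted p = 0.0656; -0.93 without replicate 1). Spi1 was at 7.32 CPM in replicate 1 and at most 1.13 CPM elsewhere. Aif1, which encodes the microglial stain antigen IBA1, was at 3.71 CPM and at most 0.484 CPM elsewhere, with most of those values under the limit of 3 counts.

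**Figure D3:**
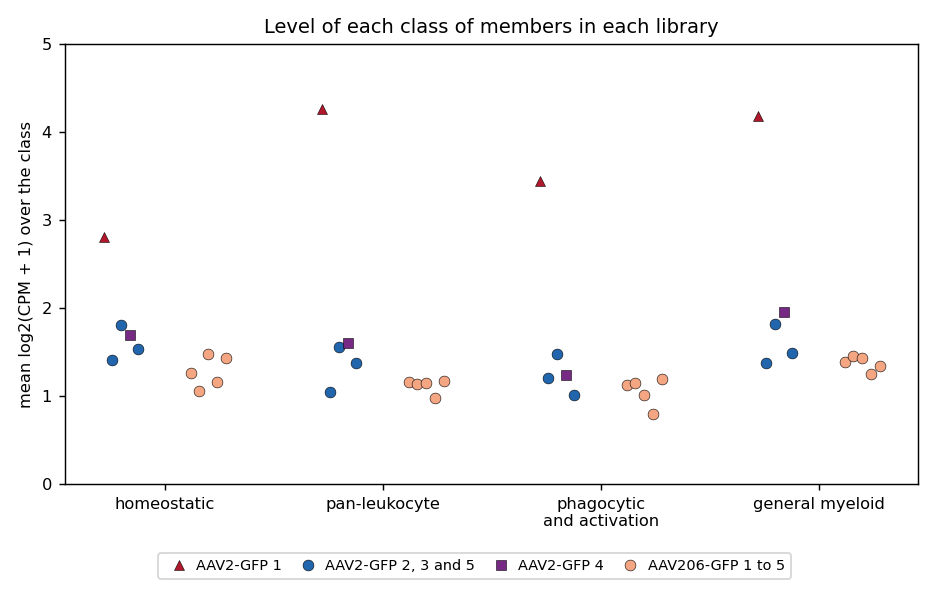
Mean log2(CPM + 1) over the genes of each class in each library. Replicate 1 of AAV2-GFP is highest in all 4 classes, at 2.80 for homeostatic and 4.26 for pan-leukocyte genes, and AAV2-GFP replicates 2 to 5 are at 1.02 to 1.95 over the 4 classes.

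Homeostatic genes were therefore contrasted with the other classes library by library. In AAV2-GFP replicate 1 the median of the ratio to the middle value of the other 9 libraries was 4.16-fold over the 5 homeostatic genes, with 1.86-fold for P2ry12 and 5.55-fold for Cx3cr1. It was 22.2-fold over the 9 pan-leukocyte genes, 9.94-fold over the 11 phagocytic and activation genes and at least 14.5-fold over the 7 general myeloid genes, with low middle values set to the limit of 3 counts. Ptprc alone was 46.3-fold higher and Cd14 1.60-fold. A rise of at least 3-fold with the highest value of all 10 libraries was seen in 30 of the 32 genes, and in 19 of the 21 tested, where 1.26% of all tested genes met that rule. The exceptions were P2ry12 and Cd14. These ratios compare 1 library with 9 and have no replicate check.

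Relative to the other members, the homeostatic genes were low only in that library. The mean log2(CPM + 1) of homeostatic genes minus that of the other 27 genes was -1.10 in AAV2-GFP replicate 1, 0.15 to 0.27 in the other AAV2-GFP libraries and -0.17 to 0.31 in AAV206-GFP. Against pan-leukocyte genes alone the difference was -1.46, 0.09 to 0.37 and -0.07 to 0.33 in the same order. Reads of homeostatic genes made up 5.70% of all reads on the 32 genes in replicate 1 and 10.3% to 17.5% in the other 9 libraries. The first of these differences averaged -0.05 ± 0.59 (SD, n = 5) over the AAV2-GFP libraries. Over the AAV206-GFP libraries it averaged 0.12 ± 0.18 (SD, n = 5). The group difference of 0.17 is smaller than the AAV2-GFP spread, and it turned to -0.0954 without replicate 1.

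**Figure D4:**
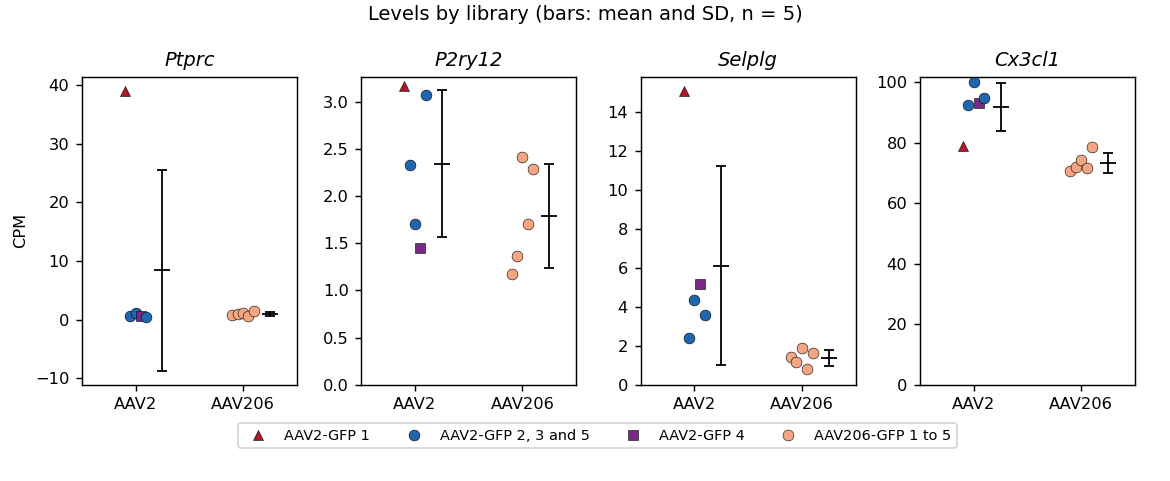
CPM of Ptprc, P2ry12, Selplg and Cx3cl1 in each library, with the mean and SD (n = 5) of each group. In Ptprc the AAV2-GFP mean rests on replicate 1 at 39.0 CPM, in P2ry12 the groups overlap, and in Selplg and Cx3cl1 all AAV2-GFP libraries are above all AAV206-GFP libraries.

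Apart from replicate 1, the genes still varied in a graded way. The summed level of the 32 genes was 632 CPM in AAV2-GFP replicate 1, 57.0, 92.4, 89.3 and 65.0 CPM in replicates 2 to 5, and 48.3 to 60.0 CPM in AAV206-GFP. Replicates 3, 4 and 5 were above all AAV206-GFP libraries and replicate 2 was within them. Without replicate 1, 17 of the 21 tested genes had a negative log2 fold change, and all but Selplg missed the threshold. Over all genes tested in that fit the median log2 fold change was -0.0066, and the share with a negative sign was not counted. The 21 genes were read in the same libraries and are not independent.

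Lists of other cell types moved with replicate 1 as well. The 5 monocyte genes summed to 25.1 CPM there and to 0 to 1.08 CPM in the other 9 libraries. Of these, Ccr2, the chemokine receptor of inflammatory monocytes, was at 11.0 CPM in replicate 1, at 0.773 CPM or less in the other AAV2-GFP libraries and at 0 in all 5 AAV206-GFP libraries. Ly6c2 was at 5.79 CPM and at most 0.242 CPM elsewhere, and Chil3 was at 0 in replicate 1. The 13 T and NK lymphocyte genes summed to 29.9 CPM against 0.449 to 1.35 CPM, and 6 of them (Cd3g, Cd8b1, Trbc2, Nkg7, Gzma and Prf1) were at 0 in all other libraries. The T cell kinase gene Lck was at 6.78 CPM against at most 1.26 CPM.

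B lymphocyte genes summed to 124 CPM in replicate 1 and 10.2 to 20.6 CPM elsewhere, led by the immunoglobulin heavy chain gene Ighm at 90.1 CPM against at most 1.78 CPM. Jchain, the immunoglobulin joining chain, made up most of the level in the other libraries and was at 29.9 CPM in replicate 1. The proliferation marker Mki67 was at 5.61 CPM against at most 0.763 CPM. Top2a, a topoisomerase of dividing cells, was at 4.79 CPM against at most 0.182 CPM. Of the 7 proliferation genes, the 6 other than Ccna2 summed to 14.3 CPM in replicate 1 and 0.565 to 1.60 CPM elsewhere. Ccna2 was at 38.6 CPM against 32.2 to 52.4 CPM, with decimals in every library, and it makes up most of the sum of the list. Ccna2 and Top2a were named after their values were seen. Neutrophil markers were absent: S100a8, Ly6g and Mmp8 were at 0 in all 10 libraries, and 6 of the 7 listed genes were at 0 in replicate 1. The remaining one, the G-CSF receptor gene Csf3r, which microglia also express, was at 6.69 CPM in replicate 1. Border macrophage genes summed to 14.3 CPM in replicate 1 and 8.90 to 16.2 CPM in the other libraries. Lyve1 and Stab1, at 5.15 and 5.70 CPM in replicate 1, made up most of that sum. Of the 8 genes, 3 were highest in replicate 1, among them Ms4a7 at 1.81 against at most 0.730 CPM and Mrc1 at 0.814 against at most 0.690 CPM. Cd163 and Pf4 were at 0 in replicate 1, but each was at 0 in 7 of the 10 libraries. The part of these cell types in the levels of the 32 genes was not tested.

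**Figure D5:**
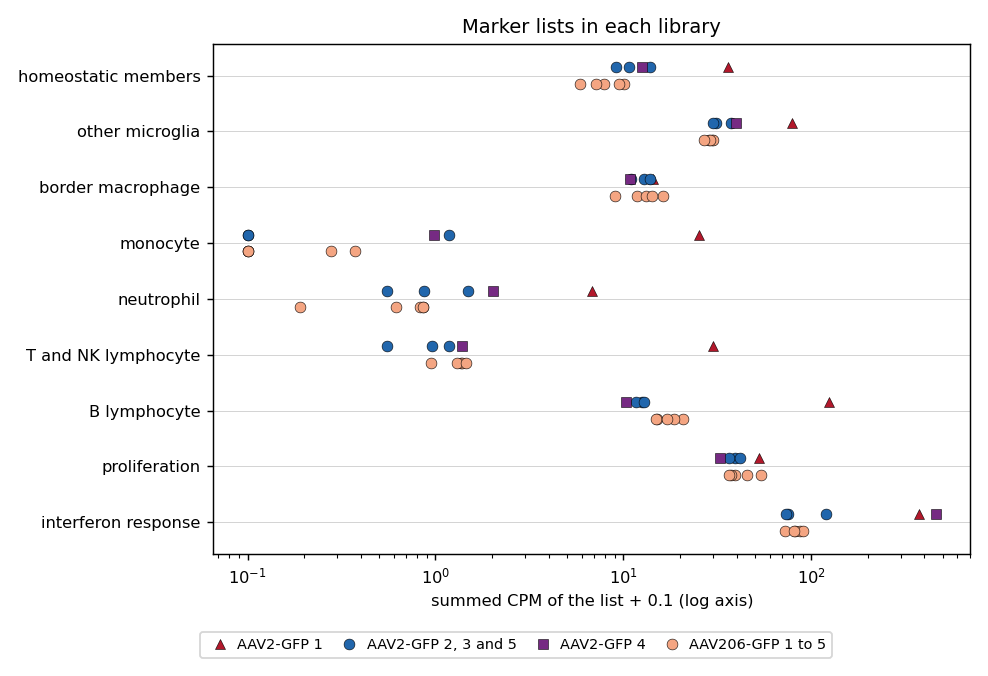
Summed CPM + 0.1 of each marker list in each library, on a log axis. For monocyte, T and NK and B lymphocyte lists AAV2-GFP replicate 1 lies far to the right of the other 9 libraries. The border macrophage sum, mostly Lyve1 and Stab1, does not set it apart, and replicate 4 is highest for interferon response genes.

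Interferon response genes were ordered differently. Their summed level was 374 CPM in AAV2-GFP replicate 1 and 461 CPM in replicate 4, against 73.4 to 120 CPM in the other 3 AAV2-GFP libraries and 72.4 to 89.9 CPM in AAV206-GFP. The interferon-induced gene Ifit1 was at 10.9 CPM in replicate 1 and 46.2 CPM in replicate 4, and Ifit3 and Usp18 had the same order. In replicate 4, 19 of the 32 microglia and macrophage genes were above every AAV206-GFP library, as in replicate 3, against 31 in replicate 1, 3 in replicate 2 and 12 in replicate 5. The share of all tested genes above every AAV206-GFP library was not counted for single libraries. These counts therefore have no background and do not by themselves show a raised level. With all libraries Ifit1, Ifit3 and Usp18 were called lower with AAV206-GFP (edgeR adjusted p = 0.0246, 0.0257 and 0.0285). With replicates 1 and 4 left out none of these 3 passed (edgeR adjusted p = 0.257, 0.198 and 0.302). Ifit3 counts carried decimals in every library.

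Lens and erythrocyte genes are given because both can come with a dissected retina. The 4 lens genes summed to 10.2 to 31.5 CPM with AAV2-GFP and 0.182 to 10.3 CPM with AAV206-GFP, where replicate 1 was at 10.3 CPM and the others between 0.182 and 1.1 CPM. The 5 erythrocyte genes summed to 67.8 to 85.8 CPM and 101 to 319 CPM. AAV2-GFP replicate 1 was within the range of its group for lens genes and the lowest of all libraries for erythrocyte genes. Their part in the result for Selplg was not tested.

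Other genes of the pathway were read from lists chosen by function. Among 7 further microglial genes, 4 were tested and none passed. Olfml3, a secreted protein of microglia, was at 9.67 CPM in replicate 1 and 5.85 to 8.82 CPM elsewhere (edgeR adjusted p = 0.158). Fcrls was at 0 in replicate 1 and at most 0.598 CPM elsewhere. Of 12 genes that act downstream of ITAM-bearing adaptors such as Tyrobp, 4 were tested and none passed. All 12 were highest in replicate 1, with the inositol phosphatase gene Inpp5d at 14.6 against 0.718 to 3.48 CPM and the phospholipase gene Plcg2 at 7.59 against 1.09 to 2.43 CPM. Of a list of 7 myeloid transcription factors, 6 were tested and none passed.

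Of 10 ligands and partners of these genes, 8 were tested and 1 was called lower. Cx3cl1, the neuronal fractalkine that binds Cx3cr1, was at 78.9, 92.4, 100.2, 93.2 and 94.8 CPM with AAV2-GFP and at 70.5, 71.9, 74.2, 71.6 and 78.4 CPM with AAV206-GFP. The groups did not overlap, though replicate 1 of AAV2-GFP came within 1 CPM of the highest AAV206-GFP library. It fell by 0.33 on the log2 scale (standard error 0.07, edgeR adjusted p = 0.0059), and by 0.38 without replicate 1 (edgeR adjusted p = 0.0011). It passed whichever library was omitted. The 2 ligands of Csf1r, named for that role after their values were seen, did not pass. Csf1 was at 10.4, 4.13, 5.80, 9.76 and 3.16 CPM with AAV2-GFP and at 2.87 to 5.47 CPM with AAV206-GFP (edgeR adjusted p = 0.203), and Il34 at 4.52 to 6.24 and 4.31 to 7.33 CPM (edgeR adjusted p = 0.739). Cd47, the signal that restrains phagocytosis, was at 90.3 to 119 and 89.9 to 97.2 CPM (edgeR adjusted p = 0.375). Larger fold changes that did not pass were those of Icam1, an adhesion ligand of leukocyte integrins, and of the cytokine gene Tgfb1, both named after their values were seen. Icam1, with decimals in 5 libraries, was at 6.96 CPM in replicate 1 and 0.259 to 1.45 CPM elsewhere (log2 fold change -1.43, edgeR adjusted p = 0.190; -0.16 without replicate 1). Tgfb1 was at 7.05 CPM against 0.594 to 2.42 CPM (log2 fold change -1.09, edgeR adjusted p = 0.119; -0.45 without replicate 1).

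Of 13 genes of disease-associated microglia, a reactive state described in neurodegeneration, 7 were tested and 1 was called lower, and 11 were highest in replicate 1. Clec7a, a receptor for fungal glucans, was at 12.5 CPM there and at most 0.769 CPM elsewhere, the integrin gene Itgax at 8.86 against at most 0.464 CPM, and Cst7, a cystatin, at 4.61 against at most 0.171 CPM. These 3 were not tested and were named after their values were seen. The 13 genes were not raised alike. In replicate 1, 5 of the 13 were highest and at least 3-fold the middle value of the other 9 libraries, and 0 of the 7 tested were. The gene called, Cd63, a tetraspanin of late endosomes found in many cell types, was at 50.0, 38.0, 53.1, 46.9 and 42.2 CPM with AAV2-GFP and at 33.0, 34.3, 35.2, 28.3 and 35.4 CPM with AAV206-GFP. All AAV2-GFP libraries were higher, and replicate 1 was within its group. Cd63 fell by 0.47 on the log2 scale (standard error 0.09, edgeR adjusted p = 0.0047), and by 0.44 without replicate 1 (edgeR adjusted p = 0.0096). Apoe, at 407 to 643 and 254 to 456 CPM, and Cd9, at 24.4 to 44.9 and 20.5 to 26.4 CPM, did not pass (edgeR adjusted p = 0.113 and 0.0583). Both are also expressed by Müller glia.

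The number of these genes called was 3 under each scaling tried and changed with the filter. With no filter on low counts all 32 genes were tested, and 20 were called lower, where 3.42% of 28442 genes were. That fit includes the genes whose high values come from replicate 1 alone. Genes that were also tested with the filter are among the 20, with smaller standard errors at nearly the same fold change. For Ptprc the standard error was 0.82 (edgeR adjusted p = 0.0236) against 1.06 with the filter, and for Ctss 0.50 (edgeR adjusted p = 0.0102) against 0.66. DESeq2 called 3 of the 21 tested genes lower, Tmem119, Selplg and Itgam. It gave no adjusted p for 7 of the 21, among them Lcp1 and Irf8.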

How the data were processed

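Bulk RNA of 10 mouse retinas was read from 1 table of expected counts, which the authors deposited without scaling between libraries. STAR 2.7.10b, RSEM 1.3.1 and build mm10 are named in the submitters' processing notes, with no role given, and the annotation is not given in the sources used here. Of the values above 0, 15.7% carried decimals, as estimated counts do, so values were rounded to whole numbers. Libraries of 150-base read pairs came from 5 mice per group, per the series' design text, and groups were taken from the sample titles.

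Gene names came from GENCODE M21, which named 91.3% of the rows. Rows with decimals share reads with another gene. All genes were fitted with edgeR 4.0.16 (R 4.3.3): filterByExpr with a minimum count of 10, which kept 15539 of 28442 genes, TMM factors, a quasi-likelihood F test without covariates, and Benjamini-Hochberg adjustment with a threshold of 0.05. Fold changes are AAV206-GFP over AAV2-GFP, and standard errors are the fold change divided by the root of F. The 32 genes, the 15 other lists and the tests were chosen with earlier results of these data known. All 32 genes are named, and of the other lists the called ones whose mean reached 1 CPM (at most 4) and up to 2 others by level. Not every gene that rule allows is named, and genes at 0 are named as such after their values were seen. Limits of 3 counts and Poisson intervals cover counting error only, because PCR copies are not independent molecules. On simulated counts (15337 genes tested), the test found 78.8% of changes of 2-fold and 65.7% of those of 1.5-fold, with 4 false calls among 147. Those counts had the spread usual for a gene's level and no library that stood apart as AAV2-GFP replicate 1 does. The rates therefore do not carry over to the 32 genes. Alternatives used DESeq2 1.42.0, limma 3.58.1, other scalings, filters, a replicate block and omitted libraries. Same-numbered libraries of the groups did not deviate together. Some genes of the other lists are not reported here.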

Additional observations from a re-analysis of the deposited data

Results flagged for a closer look

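Values are listed here because 1 of the 5 libraries of a group stood well away from the other 4, its gap to the nearest one being over 0.71 of the whole range (the 95% critical value of Dixon's ratio). In 119 groups examined, 53 such values were found. For independent, normally spread values about 1 in 20, or 5.95, would be found, but that is not a fair background here. Some genes were named after their values were seen, all genes share the same 10 libraries, and many levels are low counts. AAV2-GFP replicate 1 was high in 42 of them, 27 among the 32 microglia and macrophage genes.

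Among homeostatic genes it was high for P2ry13 (4.70 CPM) and Cx3cr1 (17.3 CPM), and not for P2ry12, Tmem119 or Siglech. All 9 pan-leukocyte genes were set apart: Ptprc (39.0 CPM), Cd52 (12 CPM), Cd53 (6.96 CPM), Itgb2 (15.4 CPM), Laptm5 (40.8 CPM), Lcp1 (33.8 CPM), Coro1a (23.0 CPM), Selplg (15.1 CPM) and Vav1 (8.32 CPM). The phagocytic and activation genes were Trem2 (7.50 CPM), Tyrobp (7.14 CPM), Fcer1g (7.96 CPM), Fcgr1 (5.06 CPM), Fcgr2b (6.06 CPM), Fcgr3 (10.2 CPM), Cd68 (7.78 CPM), Ctss (98.0 CPM) and Lyz2 (50.8 CPM), without Cd14 and Lgals3. All 7 general myeloid genes were set apart: Aif1 (3.71 CPM), Csf1r (55.7 CPM), Itgam (8.41 CPM), Spi1 (7.32 CPM), Irf8 (35.5 CPM), Ly86 (10.4 CPM) and Mpeg1 (72.3 CPM). In AAV206-GFP, Aif1 was high in replicate 2 (0.456 CPM) and Csf1r in replicate 1 (11.0 CPM).

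Of the genes outside the 32, replicate 1 of AAV2-GFP was high for Plcg2 (7.59 CPM), Inpp5d (14.6 CPM), Ccr2 (11.0 CPM), Ly6c2 (5.79 CPM), Csf3r (6.69 CPM), Lck (6.78 CPM), Ighm (90.1 CPM), Jchain (29.9 CPM), Mki67 (5.61 CPM), Top2a (4.79 CPM), Tgfb1 (7.05 CPM), Icam1 (6.96 CPM), Clec7a (12.5 CPM), Itgax (8.86 CPM) and Cst7 (4.61 CPM). AAV2-GFP replicate 4 was high for Ifit1 (46.2 CPM), Ifit3 (128 CPM) and Usp18 (15.7 CPM). In AAV206-GFP, replicate 4 was high for Ly6c2 (0.179 CPM) and Lck (1.26 CPM), replicate 1 for Ighm (1.09 CPM) and replicate 5 for Mki67 (0.763 CPM) and Cst7 (0.17 CPM), mostly near the limit of 3 counts. Replicate 5 of AAV206-GFP was also high for Pde6b (2546 CPM).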

How the results depend on the processing

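Selplg kept its direction and its call in every alternative run. The count of the 32 genes called lower, 3 with all libraries, was the same with the other 3 scalings and with a filter of 10 counts in 5 libraries. DESeq2 also called 3, but these were Selplg, Tmem119 and Itgam. It gave no adjusted p for Lcp1 and Irf8, so the equal count does not show that those 2 calls held or failed. The count was 2 with robust dispersions. It was 1 with limma-voom, 1 with limma-voom and sample weights, and 1 without AAV2-GFP replicates 1 and 4. It was 20 with no filter on low counts, where newly tested genes passed and also genes tested before, such as Ptprc and Ctss. It ranged from 1 to 15 when single libraries were left out, with 1 without AAV2-GFP replicate 1 or any AAV206-GFP library, 15 without AAV2-GFP replicate 2 and 8 without AAV2-GFP replicate 5. The count of these genes without overlap ranged from 1 to 5 in the same fits, with 5 without AAV2-GFP replicate 2. The share of all genes without overlap was not counted in those fits. All genes past the threshold numbered 1747, 985 without AAV2-GFP replicates 1 and 4, and 991 to 1912 with single libraries left out, the lowest without AAV2-GFP replicate 4.

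With the replicate number as a block (replicate block), 1085 of all genes and 1 of the 32 were called. Same-numbered libraries had correlations of -0.05 to 0.04, and 0 of 5 AAV2-GFP libraries correlated best with their own number, so the numbers do not pair the mice.

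The group difference of homeostatic against other genes, 0.17, was -0.12 without AAV2-GFP replicates 1 and 4 and ranged from -0.0954 to 0.25 with single libraries left out. Without AAV2-GFP replicates 1 and 4, log2 fold changes turned sign for Ptprc (0.37), Fcgr3 (0.0044), Mpeg1 (0.23), Csf1 (0.0034), Icam1 (0.23) and Il34 (-0.0296), and with limma-voom and sample weights for Fcgr3 (0.37). With single libraries left out, the log2 fold change ranged from -3.34 to 0.40 for Ptprc, -1.89 to 0.0159 for Fcgr3, -2.02 to 0.0616 for Mpeg1, -0.18 to 0.27 for Cd14 and -0.0014 to 0.19 for Il34. Except where a sentence names the cause, the cause was not tested. The 11 untested genes had few counts outside AAV2-GFP replicate 1, which limits what this depth can show.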

Other observations

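Jchain, an immunoglobulin gene chosen here after its values were seen, was higher with AAV206-GFP once AAV2-GFP replicate 1 was set aside. It was at 10.5, 9.74, 9.12 and 11.9 CPM in AAV2-GFP replicates 2 to 5 and at 19.1, 17.7, 14.2, 14.1 and 16.2 CPM in AAV206-GFP, so these libraries did not overlap. Without replicate 1 its log2 fold change was 0.66 (standard error 0.13, edgeR adjusted p = 0.0043). With replicate 1, at 29.9 CPM, the log2 fold change was 0.20 (edgeR adjusted p = 0.666). Ighm, whose product pairs with it in secreted IgM, was at 0.256 to 1.78 CPM in these 9 libraries.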
